A study of Mus musculus with 2 samples.

Results

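The genes that set arrest in, or exit from, the first gap phase of the cell cycle (G1) were read out in GFP+ cells, labelled as keratinocytes, that were sorted from resting mouse skin. They are 10 genes picked by name out of 50559 listed: the CDK inhibitors Cdkn1a, Cdkn1b, Cdkn1c and Cdkn2c, the D cyclins Ccnd1, Ccnd2 and Ccnd3, and the pocket proteins Rb1, Rbl1 and Rbl2. All 10 were found, and all 10 had the 10 or more counts in total that a test between libraries required. The series holds 1 group with 2 replicate libraries of ribosome-depleted total RNA. Both came from live GFP+ cells of dorsal skin of Polr2b f/f-GFP; K14-Cre mice collected 21 days after birth, when hair follicles rest (telogen). All animals thus carry the floxed Polr2b-GFP allele, where Polr2b encodes a core subunit of RNA polymerase II. They also carry Cre driven from the keratin 14 (K14) promoter, known to be active in basal epidermis and in the follicle epithelium that derives from it. The labels give neither the number nor the sex of the animals, nor whether a library pools several. The series' stated aim was to set steady-state RNA beside nascent RNA, and the nascent RNA was not analysed here.

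In G1, D cyclins bind the kinases Cdk4 and Cdk6, and cyclin E binds Cdk2. These kinases phosphorylate the retinoblastoma family, the pocket proteins, which otherwise hold E2F transcription factors and the genes of DNA synthesis in check. Inhibitors of the Cip/Kip family (Cdkn1a, Cdkn1b, Cdkn1c) bind cyclin-kinase complexes, and those of the INK4 family (Cdkn2a to Cdkn2d) bind Cdk4 and Cdk6 alone. In skin these proteins are known for restraining the division of follicle stem cells and for accompanying the exit of basal keratinocytes from the cycle.

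Replicate 1 held 36692204 counts and replicate 2 held 33489967. Keratinocyte markers were abundant, with 12 of 12 basal genes reaching 10 CPM in each library (CPM is the count divided by the library total, on a common scale). The same held for 10 of 10 fibroblast and 10 of 11 myeloid genes, so the sorted fraction also carried RNA of those cells. The 10 fibroblast genes summed to 14985 CPM in replicate 1, against 7463 CPM in replicate 2, and the 11 myeloid genes to 8217 and 8826 CPM. T cell genes were near the floor, at a median of 0.0876 CPM and with no count for Trdc, although Thy1 of that list averaged 28.2 CPM. Xist had 112587 counts in replicate 1, against 11 in replicate 2, and the Y-linked Ddx3y had 0 and 1618, so the libraries differ in the sex of their animals. In such bulk RNA, fewer cells of a type and less RNA per cell cannot be told apart.

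The Cip/Kip inhibitors differed widely in level, and Cdkn1a stood far above the others. Cdkn1a, which encodes p21, an inhibitor induced by p53 and by many other signals, had 256 CPM in replicate 1 and 388 CPM in replicate 2. In TPM, which divides counts by gene length as deposited and so allows genes to be compared in level, it stood at 312 and 473 TPM, a mean of 392 ± 114 TPM (SD, n = 2). Its mean lay at the 98.2 percentile of the 15833 detected genes, those reaching 1 CPM in each library, which are 31.3% of all listed; all 10 members were among them. Cdkn1b, which encodes p27, an inhibitor that accumulates in quiescent cells, had 61.2 TPM in replicate 1 and 47.6 TPM in replicate 2. Cdkn1c, which encodes p57 and is expressed mainly from the maternal allele, had 13.4 and 8.67 TPM, on 395 and 233 counts. The libraries of Cdkn1a did not overlap those of Cdkn1b, nor those of Cdkn1b the ones of Cdkn1c. Cdkn1a therefore made up 80.7% of the TPM of its family in replicate 1 and 89.4% in replicate 2. Cdkn1b held 15.8% and 9.0%, and Cdkn1c held 3.46% and 1.64%. The level of Cdkn1b depends on its length, deposited as 2405 bases, while its longest coding transcript has 4552. With the longest coding transcripts as lengths its mean share was 7.13%, against 12.4% with the deposited ones. Within a library, where the sequencing total cancels, Cdkn1a exceeded Cdkn1b by 5.10-fold in replicate 1 and 9.93-fold in replicate 2.

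RefSeq lists 2 starts for Cdkn1a among its promoter windows, and the upstream one holds an element of the kind that p53 binds. The window is shown because Cdkn1a was the highest member and is a textbook p53 target. The 250 bases before that start, on the plus strand of GRCm38.p6 at chr17:29090729-29090978, are printed 5′ to 3′, with the element in capitals.
Cdkn1a: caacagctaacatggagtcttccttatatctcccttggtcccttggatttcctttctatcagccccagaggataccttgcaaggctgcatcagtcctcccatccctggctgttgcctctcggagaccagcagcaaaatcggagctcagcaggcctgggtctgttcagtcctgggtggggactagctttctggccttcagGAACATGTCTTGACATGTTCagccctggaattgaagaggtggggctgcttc
The search was for the p53 response element, 2 adjoining half-sites of 10 bases with intact cores and at most 1 mismatch to the consensus, which reads the same on both strands. The match begins 51 bases before the start. Such an element was found in 18 of 27025 genes with a window, or 0.0666%, and in none of the other 8 windows of the members. Of the 14 other p53 target genes listed below, 12 had a window and 0 held such an element. Among Trp53, Mdm2 and Mdm4, 0 of 3 held one. The allowance of 1 mismatch was set after the window had been read. A match of letters is not evidence of binding, and the counts do not show which start was used.

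Of the INK4 genes, Cdkn2c and Cdkn2d carried nearly all of the RNA. Cdkn2c, which encodes p18, had 19.5 TPM in replicate 1 and 14.8 TPM in replicate 2, on 652 and 450 counts. The other 3 genes of the family, which are no members, were Cdkn2d at 23.1 ± 2.71 TPM, Cdkn2b at 3.22 ± 0.105 TPM and Cdkn2a, which had 0 counts in replicate 1 and 1 in replicate 2 (SD, n = 2). A count of 0 allows up to 0.0818 CPM of Cdkn2a in replicate 1. Cdkn2c made up 44.5% of the family's TPM in replicate 1 and 34.3% in replicate 2, beside 48.3% and 57.9% for Cdkn2d. The order of Cdkn2d over Cdkn2c held in both libraries, at a ratio of Cdkn2c to Cdkn2d of 0.922 in replicate 1 and 0.592 in replicate 2. By counts alone Cdkn2c led on average, with 49.9% of the family beside 44.2% for Cdkn2d.

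All 3 D cyclins were expressed at similar levels, with Ccnd2 the highest. Ccnd2 had 71.3 TPM in replicate 1 and 86.3 TPM in replicate 2. Ccnd3 had 61.5 and 51.2 TPM. Ccnd1, the D cyclin best known as a target of growth factor and Wnt signalling, had 35.9 and 42.4 TPM. The order Ccnd2, Ccnd3, Ccnd1 was the same in both libraries and the ranges of the genes did not overlap. Ccnd2 made up 42.3% of the TPM of D cyclins in replicate 1 and 48.0% in replicate 2, Ccnd3 36.5% and 28.5%, and Ccnd1 21.3% and 23.6%. The ratio of Ccnd2 to Ccnd1 was nearly equal in the libraries, at 1.99 and 2.04, whereas that of Ccnd3 to Ccnd1 was 1.71 in replicate 1 and 1.21 in replicate 2. The length correction bears on these shares, because the deposited lengths run from 2509 bases for Ccnd3 to 8245 bases for Ccnd2. By counts alone Ccnd2 held 69.1 ± 2.95% of the family and Ccnd1 and Ccnd3 were nearly level, at 15.7 ± 0.391% and 15.2 ± 3.34%. The kinases that the D cyclins bind stood at 106 ± 7.80 TPM for Cdk4 and 26.0 ± 1.17 TPM for Cdk6, and Cdk4 held 79.9% of their TPM in replicate 1 and 80.6% in replicate 2. Here too the length decides the order: Cdk6, at 12096 bases, had 4510 and 4378 counts, against 2107 and 2131 for Cdk4.

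Among the pocket proteins, Rb1 and Rbl2 were level with each other at the deposited lengths and Rbl1 was lower. Rb1, the retinoblastoma protein, had 34.1 TPM in replicate 1 and 35.4 TPM in replicate 2. Rbl2, which encodes p130, the pocket protein of the DREAM repressor complex in quiescent cells, had 36.7 and 33.7 TPM. Rbl1, which encodes p107 and is itself an E2F target that accompanies cycling, had 18.7 and 10.7 TPM. The values of Rb1 and Rbl2 overlapped and changed order between the libraries, while both lay above Rbl1 in each. Rbl1 made up 20.9% of the family's TPM in replicate 1 and 13.4% in replicate 2. With no length scaling Rb1 held 47.5% and Rbl2 35.8% of the family, and with the longest coding transcript as length 48.8% and 34.8%, so that Rb1 then led. The ratio of Rb1 to Rbl1 was 1.83 in replicate 1 and 3.31 in replicate 2.

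The Rbl1 promoter is shown because Rbl1 differed most between the libraries, in the direction of the E2F targets described below. The 250 bases before its start, on the minus strand of GRCm38.p6 at chr2:157204535-157204784, are printed 5′ to 3′ in the direction of the gene, with the E2F motif in capitals.
Rbl1: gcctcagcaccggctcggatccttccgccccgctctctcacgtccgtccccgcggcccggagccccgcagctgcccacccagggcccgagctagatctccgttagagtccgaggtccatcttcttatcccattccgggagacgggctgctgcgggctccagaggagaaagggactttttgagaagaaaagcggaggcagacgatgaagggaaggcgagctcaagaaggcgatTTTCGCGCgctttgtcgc
The letters searched for E2F were TTTCCCGC, TTTCGCGC, TTTGCCGC and TTTGGCGC on both strands. The match in Rbl1 begins 18 bases before the start. These motifs occur in 744 of 32851 promoter windows, each from 250 bases before to 50 after a start, or 2.26%, and in 2.60% of the 27025 genes. Of the 6 members with a window (Cdkn1a, Cdkn1b, Cdkn2c, Ccnd3, Rbl1 and Rbl2), Rbl1 was the 1 with such a match. Among the genes of DNA synthesis that E2F factors are known to drive, 6 of 13 with a window held a match (Mcm3, Mcm5, Mcm6, Mcm7, Cdc6 and Cdt1). The letters TTTGAA of the cell cycle homology region (CHR), which MuvB complexes bind, were found in Rbl2 among the members and in 20.2% of all genes. Cdkn1c, Ccnd1, Ccnd2 and Rb1 are named only.

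**Figure D1:**
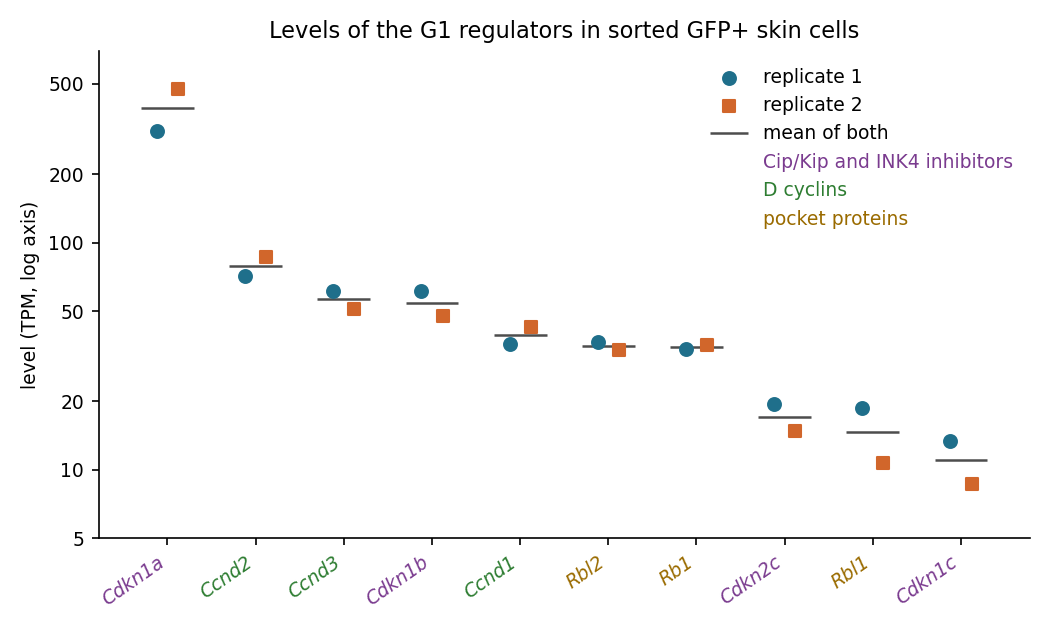
Level of each of the 10 genes in TPM (log axis) in replicate 1 (circles) and replicate 2 (squares), with a line at the mean of both, ordered by mean; gene names are coloured by family. Cdkn1a stands at 312 and 473 TPM, above all other members in both libraries, and Cdkn1c is lowest at 13.4 and 8.67 TPM.

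Ordered by mean TPM, the members ran from Cdkn1a at 392 ± 114 to Ccnd2 at 78.8 ± 10.6, Ccnd3 at 56.4 ± 7.30, Cdkn1b at 54.4 ± 9.55, Ccnd1 at 39.2 ± 4.55, Rbl2 at 35.2 ± 2.15, Rb1 at 34.8 ± 0.918, Cdkn2c at 17.2 ± 3.35, Rbl1 at 14.7 ± 5.64 and Cdkn1c at 11.0 ± 3.34 (SD, n = 2 each). Of the 9 pairs of neighbours, 4 were separated, in that both libraries of the upper gene lay above both of the lower. These were Cdkn1a over Ccnd2, Ccnd2 over Ccnd3, Cdkn1b over Ccnd1, and Rb1 over Cdkn2c. The ranges of the other 5 pairs overlapped. Of these, Ccnd3 over Cdkn1b, Cdkn2c over Rbl1 and Rbl1 over Cdkn1c kept their order in both libraries, and Ccnd1 with Rbl2 and Rbl2 with Rb1 did not. Cdkn1a exceeded the next gene, Ccnd2, by 4.98-fold on the means, whereas the 9 genes below it spanned 78.8 to 11.0 TPM. That lead rests on the length of Ccnd2: in CPM, with no length scaling, the ratio was 1.23 and the ranges of the genes overlapped. The place of Cdkn1b over Ccnd1 rests on length too. In CPM Cdkn1b averaged 52.8 and Ccnd1 59.5. The median of the members was 37.2 TPM, beside 12.96 TPM over all 15833 detected genes and 27.6 TPM over the 9526 genes that reached 10 CPM in each library. Of the members, 9 were among those 9526 genes, which are 60.2% of the detected and 18.8% of all listed ones, and Cdkn1c, at 10.8 CPM in replicate 1, against 6.96 CPM in replicate 2, was not.

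**Figure D2:**
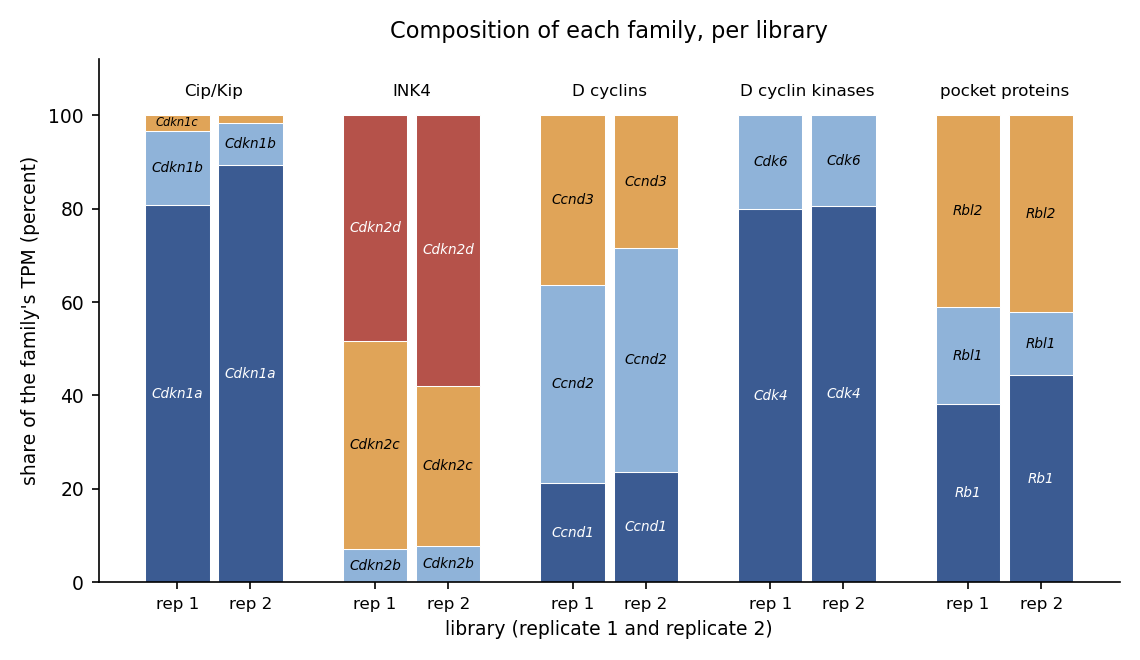
Share of each gene in the TPM of its family, in percent, stacked for replicate 1 and replicate 2 side by side. Cdkn1a takes 80.7% and 89.4% of the Cip/Kip bar with Cdkn1c as the thin top segment, the D cyclins split more evenly, Cdk4 holds 79.9% and 80.6% of the D cyclin kinases, and Cdkn2a is too low to be seen in the INK4 bar.

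The libraries were then compared with each other, to see how far the levels of these genes are repeatable within the group. The comparison is between 2 libraries and not between conditions, and no replicate check of it exists. By the exact two-sided binomial test of the counts against the library totals, with Benjamini-Hochberg adjustment over all 23690 tested genes, 9 of the 10 members differed at an adjusted p of 0.05, while 44.1% of all tested genes did. Members are well counted, and among the 9526 genes at 10 CPM or more the share was 63.9%, with 34.5% higher and 29.4% lower in replicate 1. Higher in replicate 1 were 6 members (Rbl1, Cdkn1c, Cdkn2c, Cdkn1b, Ccnd3 and Rbl2), beside 27.2% of all tested genes, and lower in replicate 1 were 3 (Cdkn1a, Ccnd2 and Ccnd1), beside 16.9%. The split was 5 and 4 with TMM scaling, where Rb1 joined the lower genes and Rbl2 was not called, and over all tested genes it was 21.4% higher and 22.7% lower with that scaling. With a further limit of 1.5-fold, 2 members were higher and 1 was lower, beside 12.8% and 4.42% of all tested genes. A further scaling used the summed counts of 11 cell junction genes, a stand-in for keratinocyte content that was not tested. Of these genes 2 were higher in replicate 1, 8 were lower and 1 did not pass the binomial test. This scaling raises every log2 ratio by 0.36. With it 9 members were higher in replicate 1 and Cdkn1a was lower, beside 59.2% and 3.73% of all tested genes.

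The binomial test covers no more than counting error, and reads that carry no molecular identifier need not be independent molecules. The spread that all tested genes show between these libraries corresponds to a coefficient of variation of 22.7%. Measured against it, edgeR's exact test called 0 of the 10 members, at adjusted p from 0.944 to 1, and 0.279% of all tested genes. At an unadjusted p under 0.05 it also held 0 of the 10 members, beside 7.18% of all tested genes. Of the 9526 genes at 10 CPM or more, it held 144 at that limit and called 4 after adjustment. DESeq2 with a dispersion estimated in the same way called 0 members, but also 0 of all 23690 tested genes, so it cannot set the members apart. The lowest unadjusted p by edgeR's exact test were 0.124 for Rbl1 and 0.150 for Cdkn1a.

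Rbl1 had the highest log2 ratio of the members and Cdkn1a the lowest, while that of Cdkn1c, at 0.63, was slightly larger in size than Cdkn1a's. Rbl1 had 1534 counts (41.8 CPM) in replicate 1 and 801 counts (23.9 CPM) in replicate 2, a log2 ratio of replicate 1 over replicate 2 of 0.81 with an exact 95% interval of 0.68 to 0.93 and a binomial adjusted p of 8.56e-38. Of the genes at 10 CPM or more, 3.04% had a larger ratio in either direction. Cdkn1a had 9400 counts (256 CPM) and 12998 counts (388 CPM), a log2 ratio of -0.60 with an interval of -0.64 to -0.56 and a binomial adjusted p of 1.58e-207. For Cdkn1a the share of genes with a larger ratio was 6.78%. The p of Cdkn1a was the smaller of the pair although its ratio was the smaller too, on far more counts.

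The other inhibitors among the members lay on the side of Rbl1. Cdkn1c stood at a log2 ratio of 0.63, with an interval of 0.39 to 0.87 that its 628 counts leave wide. Cdkn2c was at 0.40 and Cdkn1b, with 2178 counts in replicate 1 and 1546 in replicate 2, at 0.36. Thus, among the members, p21 RNA was lower, and p18, p27 and p57 RNA higher, in replicate 1. The tested INK4 inhibitors outside the members did not share the direction of p18, p27 and p57. Cdkn2d was lower in replicate 1 like Cdkn1a, at -0.24, and Cdkn2b, at -0.06, did not pass the binomial test. In the D cyclins, Ccnd2 and Ccnd1 shared a direction, at -0.27 and -0.24, and Ccnd3 took the other, at 0.27. With scaling to the cell junction genes Ccnd2 and Ccnd1 turned to 0.091 and 0.13. Rb1 was the most even of all members, at -0.05 with an interval of -0.12 to 0.02 and a binomial adjusted p of 0.255, and Rbl2 was close, at 0.13. The summed TPM was 386 in replicate 1, against 529 in replicate 2, for the Cip/Kip genes, 169 and 180 for the D cyclins and 89.5 and 79.8 for the pocket proteins.

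**Figure D3:**
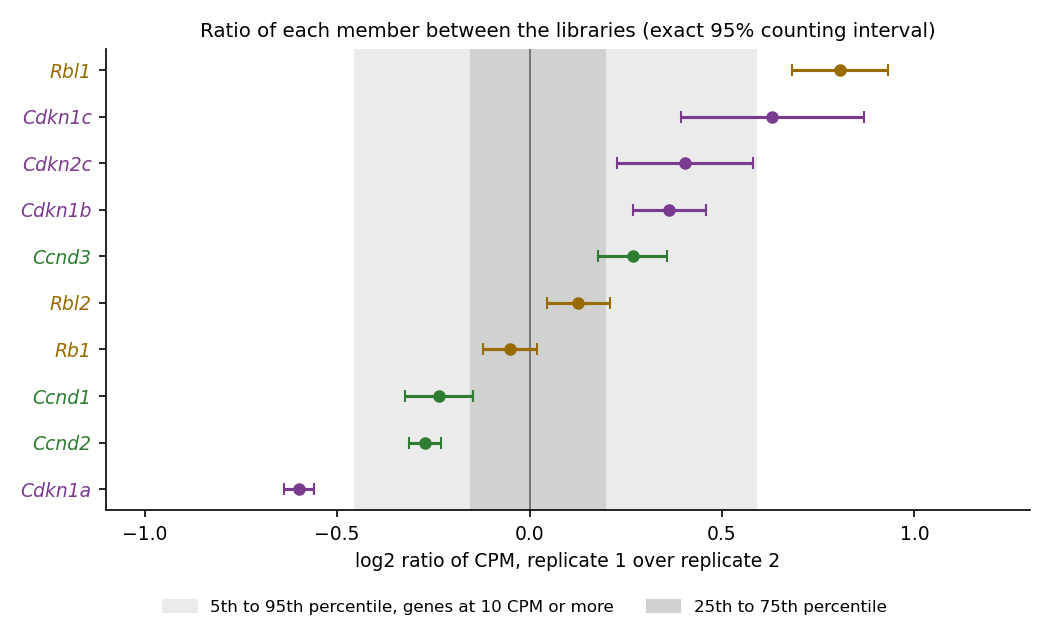
Log2 ratio of CPM, replicate 1 over replicate 2, for each member (points) with its exact 95% counting interval (bars), over bands for the 25th to 75th and 5th to 95th percentiles of the 9526 genes at 10 CPM or more. Rbl1 at 0.81 and Cdkn1c at 0.63 lie above the 95th percentile of 0.59, Cdkn1a at -0.60 lies below the 5th percentile of -0.45, and the other 7 lie between.

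Other genes of the G1 pathway were taken from lists of 71 genes, of which 70 could be tested. Of these, 38 were higher in replicate 1, 16 were lower and 16 did not pass the exact binomial test. Of all tested genes 27.2% were higher and 16.9% lower, and of those at 10 CPM or more 34.5% and 29.4%. The same shares stand beside the counts of each list below. The median log2 ratio of the pathway genes was 0.22, beside 0.09 over all tested genes and 0.02 over those at 10 CPM or more. With scaling to the cell junction genes the split was 60 and 3, while 59.2% of all tested genes were then higher and 3.73% lower. Of the other INK4 genes Cdkn2d was lower in replicate 1, at -0.24, and Cdkn2b did not pass. All 3 cyclins of the E and A types were higher in replicate 1. Ccna2, the S-phase cyclin, had 44.7 CPM in replicate 1 and 23.3 CPM in replicate 2 (log2 ratio 0.94), Ccne1 had 3.65 and 2.03 CPM (0.85) and Ccne2 had 4.93 and 2.21 CPM (1.16). At 3.60 and 2.72 TPM on average, cyclin E1 and E2 RNA was far below that of any D cyclin.

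Genes of DNA synthesis that E2F factors drive were higher in replicate 1 in 14 of 15 cases and lower in none, at a median log2 ratio of 0.59. Of all tested genes 27.2% were higher and 16.9% lower. The sliding clamp gene Pcna led in level at 118 ± 10.9 TPM, with a ratio of 0.19, followed by the reductase subunit Rrm1 at 51.5 ± 11.6 TPM and 0.46 (SD, n = 2 each). Mcm6, a subunit of the replicative helicase, was the 1 pathway gene past edgeR's exact test, with 2345 counts in replicate 1 and 523 in replicate 2, a log2 ratio of 2.03 and an adjusted p of 0.0284. That ratio stands apart from those of the other 5 helicase subunits, Mcm2 to Mcm5 and Mcm7, which lay between 0.47 and 0.93. Of 10 mitosis genes all 10 were higher in replicate 1 by the binomial test, at a median of 0.70, with 151 CPM of Mki67 in replicate 1, against 99.5 CPM in replicate 2. Rbl1, at 0.81, lay within the ranges of the DNA synthesis and mitosis lists, 0.19 to 2.03 and 0.23 to 1.02. Cdkn1c, Cdkn2c, Cdkn1b and Ccnd3 lay within both ranges too, while Rb1 and Rbl2 lay below both.

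The factors that the pocket proteins bind were led by E2f4 at 57.0 ± 3.12 TPM and Tfdp1 at 40.5 ± 1.38 TPM, and E2f7 was lowest at 2.27 ± 0.699 TPM. With no length scaling Tfdp1 stood above E2f4, at 62.7 CPM beside 45.8 CPM. E2f4 is the E2F that works mainly in repressor complexes with Rbl1 and Rbl2. Of 10 E2F and DP genes 6 were higher in replicate 1 and none lower, with E2f4 at a log2 ratio of -0.11 and a binomial adjusted p of 0.0695. Of the 6 MuvB and Myb subunits, the partners of p130 in DREAM and of B-Myb in cycling cells, 4 were higher and none lower. Rbbp4 was at 90.8 ± 1.99 TPM, Lin54 at 17.7 ± 2.58 TPM and Mybl2, which encodes B-Myb, at 1.37 ± 0.515 TPM, with 106 counts in replicate 1 and 56 in replicate 2. Among the G1 kinases and their activators 4 of 7 were higher and 3 lower, with 57.4 CPM of Cdk4 in replicate 1, against 63.6 CPM in replicate 2, Cdk2 at 41.7 and 37.2 CPM, and Mnat1, an assembly factor of the CDK-activating kinase, lowest in level at 6.10 ± 1.23 TPM.

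Most listed targets of p53, of which Cdkn1a is one, were lower in replicate 1, as were most basal, spinous and early response genes. Trp53, which encodes p53, stood at 89.6 ± 6.95 TPM and Mdm2, its ubiquitin ligase, at 70.4 ± 0.943 TPM, with Mdm4 lowest of the list at 38.3 ± 6.33 TPM. With no length scaling Trp53 was lowest, at 82.8 CPM beside 115 CPM for Mdm4. Of 14 p53 target genes, 9 were lower in replicate 1, 1 was higher and 4 did not pass the binomial test, beside 16.9% lower and 27.2% higher of all tested genes. Their median was -0.24, which is smaller than the 0.36 that junction scaling adds, so that the direction turns there. Btg2 had 1270 CPM in replicate 1 and 1606 CPM in replicate 2, Plk2 had 246 and 291 CPM, and Tigar, the lowest in TPM, had 7.09 and 11.6 CPM. Sesn2, a stress-induced sestrin, had the lowest ratio, at -0.82, and the exception was Trp53inp1, with 407 CPM in replicate 1, against 247 CPM in replicate 2 (0.72). Btg2 is also an early response gene, and 12 of the 14 genes of that list were lower in replicate 1 and none higher, at a median of -0.28 that turns likewise, with a summed level of 22406 CPM in replicate 1 and 25820 CPM in replicate 2. The FoxO factors, which can induce Cdkn1a and Cdkn1b, were higher in replicate 1 in 3 of 3 cases by small margins, with Foxo3 at 97.9 ± 11.3 TPM, Foxo1 at 44.8 ± 2.12 TPM and Foxo4 at 24.6 ± 1.38 TPM. Of 7 genes for the turnover of cyclins and inhibitors 2 were higher and 2 lower. Cul1 was highest at 55.0 ± 8.61 TPM, Fzr1 followed at 41.4 ± 0.685 TPM, and Skp2, the subunit that targets p27, was lowest at 4.84 ± 0.680 TPM. With no length scaling Ambra1 stood above Fzr1, at 80.2 CPM beside 37.6 CPM.

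**Figure D4:**
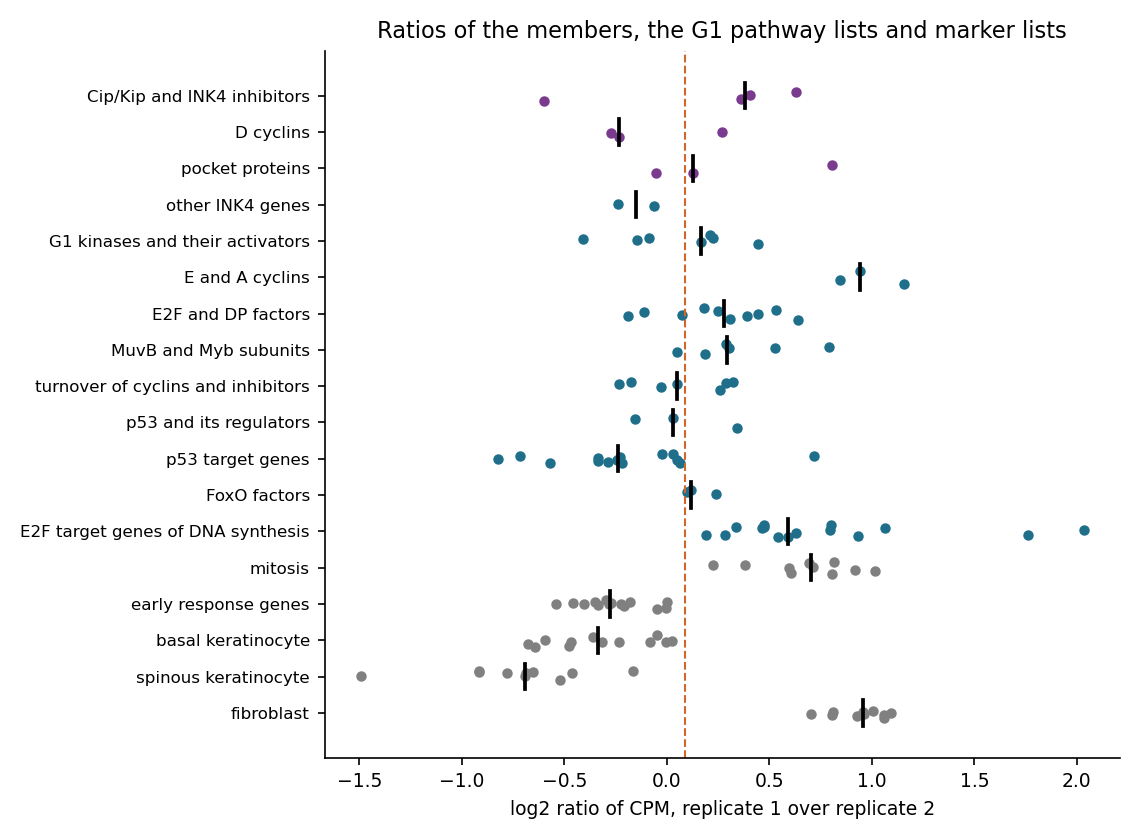
Log2 ratio of CPM, replicate 1 over replicate 2, of each tested gene (points) in the member families (purple), the G1 pathway lists (teal) and marker lists (grey), with a bar at each list's median and a dashed line at 0.09, the median of all tested genes. Genes of DNA synthesis and mitosis have medians of 0.59 and 0.70 and fibroblast genes 0.96, while p53 targets, early response, basal and spinous genes lie at -0.24, -0.28, -0.34 and -0.69; junction scaling adds 0.36 to every ratio, which turns all of these negative medians but the last.

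Markers of cell types and states moved along with these ratios. Fibroblast genes were higher in replicate 1 in 10 of 10 cases, between log2 ratios of 0.71 and 1.09. Beside these and the following counts, 27.2% of all tested genes were higher and 16.9% lower. Basal genes were lower in 10 of 12, summing to 14463 CPM in replicate 1, against 20248 CPM in replicate 2, and spinous genes in 10 of 10, summing to 4660 and 8250 CPM. Myeloid genes were higher in 4 and lower in 4 of 11. All endothelial, mural and melanocyte genes that passed the test were higher in replicate 1, in 4 of 6, 5 of 6 and 4 of 6 cases, at summed levels of 74.5, 182 and 34.6 CPM in replicate 1 and 51.4, 84.8 and 19.4 CPM in replicate 2. The part of these cell types, of the early response and of the animals' sex in the ratios of the members was not tested. Nor was that of p53 or E2F activity.

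Several members share bases with a gene on the opposite strand, and whether the counting used strand is not known. In the reference annotation, exons of Ccnd1 share 1100 bases with LTO1, those of Rbl2 share 693 bases with Aktip, those of Rb1 share 488 bases with Rcbtb2 and 408 with Lpar6, those of Ccnd2 share 368 bases with 9330179D12Rik, and those of Ccnd3 share 361 bases with Bysl. The partners had 289 counts in replicate 1 and 227 in replicate 2 for LTO1, 1065 and 976 for Aktip, 437 and 339 for Rcbtb2, 374 and 266 for Lpar6, 37 and 39 for 9330179D12Rik, and 700 and 768 for Bysl. Each was below its member in both libraries, and reads within the shared bases cannot be told apart. Antisense genes not analysed here share 273 exon bases with Cdkn1a, 625 with Cdkn1c, 372 with Ccnd2 and 892 with Rbl2, and no such partner was found for Cdkn1b, Cdkn2c and Rbl1.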

How the data were processed

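RNA was measured in 2 replicate libraries of 1 group. The deposited files give raw counts per gene and gene lengths, made with featureCounts for the mouse build mm39 according to the submitters' processing notes. The aligner, annotation and strand setting were not given in the sources used here. Reads were paired, of 150 bases, from ribosome-depleted libraries, per the labels' protocols. The libraries differ in the sex of their animals and so come from different animals. How many each holds is not stated in the labels. Binomial p-values measure counting error only, and edgeR p-values use the spread between these libraries only.

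CPM used the total of all counts and TPM the deposited length. Totals were 36692204 and 33489967 counts, and 1 CPM is 36.7 counts in replicate 1 and 33.5 in replicate 2. Genes with 10 or more counts in total entered an exact binomial test, two-sided, and edgeR's exact test, using TMM factors and the common dispersion of an intercept-only fit. Intervals are Clopper-Pearson 95% intervals, and these and the floor of 3 counts cover counting error only. Levels carry an SD and were not tested. Both tests were checked on simulated libraries. The design also listed DESeq2, other scalings, filters and lengths as alternatives.

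The members and lists were chosen with earlier results of these data known. Named are all members, the 2 highest and the lowest gene by TPM of each pathway list, and pathway genes that edgeR calls or that have no count; Sesn2, Trp53inp1, Mki67 and the helicase subunits were chosen after their values were seen. A gene that this rule names is not reported here. No gene was named for a likeness in pattern, since 2 libraries give 1 ratio per gene. Promoter sequences are from RefSeq on GRCm38.p6, with entries for 6 of the 10 members, and overlaps are from GENCODE M21 on GRCm38, used for names and shared bases only. Software was Python 3.11.15, numpy 2.4.6, pandas 2.3.3, scipy 1.17.1, matplotlib 3.10.9, R 4.3.3, edgeR 4.0.16 and DESeq2 1.42.0.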

Additional observations from a re-analysis of the deposited data

How the results depend on the processing

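No paired analysis was possible because both libraries belong to 1 group, and the ratio between them cannot be formed without either. Against 6 members higher and 3 lower in replicate 1 by the binomial test, edgeR's exact test called 0 and 0, a further limit of 1.5-fold left 2 and 1, and scaling to the cell junction genes gave 9 and 1; of 23690 tested genes these settings called 45 and 21, 3031 and 1048, and 14019 and 883. For the pathway genes, 38 and 16 became 1 and 0 with edgeR, 14 and 2 with the 1.5-fold limit and 60 and 3 with junction scaling. Junction scaling also turned the log2 ratios of Ccnd1 to 0.13, Ccnd2 to 0.091 and Rb1 to 0.31, by its own shift of 0.36. TMM or DESeq2 scaling, totals without 7SK, 7SL, ribosomal and mitochondrial RNA, no filter and a filter at 1 CPM kept these counts within 1.5 times. Without length scaling the share of Ccnd2 was 69.1%, against 45.1% of TPM, and that of Rb1 47.5%, against 41.3%. With the longest coding transcript as the length Rb1 held 48.8%. The summed CPM of the members moved by less than 1 SD with totals without 7SK, 7SL, ribosomal and mitochondrial RNA. The share of Cdkn1a did so without length scaling and with the longest coding transcript as length. Runs from either library alone cannot test this, since each of 2 values always lies within 1 SD of their mean. From either library alone the share of Cdkn1a was 80.7% to 89.4%, that of Ccnd2 42.3% to 48.0%, that of Rb1 38.1% to 44.4% and the summed CPM 904 to 1042. edgeR with totals alone or at 1 CPM, and DESeq2, called 0 members. Over all genes these settings called 65 of 23690, 39 of 15833 and 0 of 23690. Depth limits genes such as Cdkn2a, with 1 count in all.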

Other observations

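Cyclin and CDK genes outside the G1 lists were chosen by name after the data had been seen. Of 34 such genes, 29 reached 1 CPM in both libraries. Ccni, cyclin I, stood at 282 ± 3.55 TPM, above every D cyclin, and was even between the libraries, with 12215 counts in replicate 1 and 10932 in replicate 2. Ccnl1, a cyclin tied to splicing kinases, followed at 102 ± 6.24 TPM and Cdk16 at 76.3 ± 3.15 TPM (SD, n = 2 each). Genes of the kinases that act on RNA polymerase II were lower in TPM. Ccnk stood at 40.2 ± 3.59 TPM and its partners Cdk13 and Cdk12 at 20.7 ± 1.58 and 17.6 ± 0.747 TPM. Ccnt1 stood at 20.2 ± 0.916 TPM and its partner Cdk9 at 14.4 ± 0.703 TPM. This order rests in part on length. In CPM, Ccnl1 at 455 stood above Ccni at 330, and Cdk12 and Cdk13, at 167 and 140, above Cdk16 at 114. Ccnk, Ccnt1 and Cdk9 stayed below Cdk16. Of the 32 that could be tested, 18 were higher and 4 lower in replicate 1 by the exact binomial test, at a median log2 ratio of 0.13. Over all tested genes 27.2% were higher and 16.9% lower, at a median of 0.09, and among those at 10 CPM or more 34.5% and 29.4%. The exact test of edgeR called 0 of these cyclin and CDK genes. The mitotic cyclin Ccnb1 was at 0.81, with 1643 counts in replicate 1 and 853 in replicate 2, while the transcriptional cyclins and kinases named here lay between -0.18 and 0.16.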
